A study of Mus musculus with 6 samples.

Results

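The genes of fatty acid oxidation and ketogenesis were read in the liver of mice that lack the hepatic insulin receptor and of their controls. A set of 41 genes was named, and 31 of them had a probe set that the array's annotation ties to that gene alone, out of 8251 genes with such a probe set. Where a gene had several, the probe set with the highest mean over all arrays was read. The other 10 genes were not analysed here: *Acsl1*, *Cpt1b*, *Acadsb*, *Hadha*, *Acot2*, *Crot*, *Pecr*, *Acat1*, *Bdh1* and *Ucp2*. The measured genes fall into uptake and activation (5 of 6 listed), the carnitine shuttle (4 of 5), mitochondrial oxidation (14 of 17), peroxisomal oxidation (6 of 8), ketone metabolism (0 of 2) and other genes of fatty acid use (2 of 3). The ketogenic end of the pathway was thus not measured by any of the named genes.

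In the hepatocyte, fatty acids are bound by FABP1, joined to coenzyme A by acyl-CoA synthetases, and passed into mitochondria as carnitine esters by CPT1A, the carnitine-acylcarnitine translocase SLC25A20 and CPT2. There each turn of beta-oxidation oxidizes, hydrates, oxidizes again and splits the chain, electrons leave through the flavoproteins ETFA, ETFB and ETFDH, and the acetyl-CoA is burned in the citrate cycle or made into ketone bodies. Peroxisomes shorten the very long, branched and dicarboxylic chains with enzymes of their own. Many of these genes are targets of PPARα, a fatty acid-activated nuclear receptor that binds paired AGGTCA-like elements and is active in fasting, while insulin is known to restrain hepatic fatty acid oxidation in the fed state.

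The study compared Liver Insulin Receptor Knockout (LIRKO) mice with their Flox littermates to find what insulin controls in the liver. Both groups were male mice homozygous for a floxed insulin receptor allele (IR flox/flox), aged 2 to 3 months by the labels, fed normal chow ad libitum and killed without fasting. LIRKO mice also carried albumin:CRE, in which the albumin promoter drives Cre recombinase in hepatocytes, so that other liver cells keep the receptor, and Flox mice did not. There were 3 Flox and 3 LIRKO arrays (Affymetrix short oligonucleotide arrays), each with RNA pooled from 2 to 3 mice, and the values are log2 signals after robust multichip averaging (RMA). In whole liver, fewer cells of a type and less RNA per cell cannot be told apart.

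The LIRKO arrays did not behave alike. When all probe sets were ranked by Flox signal, those of the brightest decile read -0.01, -1.09 and -0.89 from the Flox mean on LIRKO 1, 2 and 3 (medians). In the next decile the medians were -0.02, -0.47 and -0.38. Of the 31 oxidation genes, 16 lay in the brightest decile and 6 in the next, so that LIRKO 1 is also given separately for each step and for most genes named below. The probe set of *Insr*, the deleted gene, read 5.45, 5.22 and 5.38 on the Flox arrays and 5.37, 5.99 and 6.06 on the LIRKO arrays. Its place relative to the floxed exon was not analysed here, so it is no check of the labels. The mean level of 8 hepatocyte markers was 12.1 to 12.2 on the Flox arrays and 12.1, 11.1 and 11.4 on LIRKO 1, 2 and 3, with 7 of the 8 below Flox in the mean. All 8 lay in the brightest decile, their median of -0.61 stood beside -0.65 for that decile, and after cyclic loess, which removes shifts that depend on signal, it was 0.25, with 5 above and 3 below Flox. Mean levels of 7 muscle markers were 5.70 to 5.89 on Flox and 5.99 to 6.73 on LIRKO arrays, with 6 of 7 above 0. Those of 5 adipocyte markers were 5.98 to 6.21 and 5.93 to 6.16, and those of 7 macrophage markers 7.05 to 7.72 and 6.92 to 7.86. The part of these differences in the results below was not tested.

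In the deposited values of the probe sets read below, *Fabp1* and *Cpt1a* were lowest on LIRKO 2 and 3, and *Ehhadh* was highest on LIRKO 1. Another probe set of *Fabp1* went the other way, and the difference of *Cpt1a* changed sign after cyclic loess, as given below. Because PPARα acts through DNA, the promoters of these 3 genes are shown first. Each is the RefSeq sequence (GRCm38.p6) from 250 bases before to 50 bases after the gene's start, read 5′ to 3′ on the gene's strand, at chr6:71199629-71199928 (+), chr19:3323051-3323350 (+) and chr16:21787785-21788084 (-). Capitals mark matches, on either strand, to AGGTCA or to the paired element, 2 copies of AGGNCA with 1 base between them (N is any base).
Fabp1: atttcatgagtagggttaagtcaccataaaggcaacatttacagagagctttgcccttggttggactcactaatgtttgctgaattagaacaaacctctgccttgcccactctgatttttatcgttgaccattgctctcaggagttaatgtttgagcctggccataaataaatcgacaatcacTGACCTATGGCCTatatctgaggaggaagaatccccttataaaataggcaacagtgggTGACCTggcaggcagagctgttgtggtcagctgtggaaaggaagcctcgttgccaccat
Cpt1a: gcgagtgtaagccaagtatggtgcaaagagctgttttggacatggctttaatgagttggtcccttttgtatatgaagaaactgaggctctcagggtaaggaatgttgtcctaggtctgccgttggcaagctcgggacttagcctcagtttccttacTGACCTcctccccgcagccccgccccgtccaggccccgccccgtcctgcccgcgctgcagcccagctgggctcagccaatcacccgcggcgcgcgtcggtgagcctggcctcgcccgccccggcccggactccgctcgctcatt
Ehhadh: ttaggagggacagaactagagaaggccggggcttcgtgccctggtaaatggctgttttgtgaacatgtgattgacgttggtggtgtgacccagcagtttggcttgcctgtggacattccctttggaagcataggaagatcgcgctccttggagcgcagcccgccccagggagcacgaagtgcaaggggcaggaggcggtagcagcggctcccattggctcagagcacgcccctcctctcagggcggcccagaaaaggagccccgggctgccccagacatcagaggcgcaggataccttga
The paired element was found in 125 of 32851 promoters of this length (0.381%), and among the 25 measured oxidation genes with a promoter entry in 1, that of *Fabp1*, 67 to 55 bases before the start. A single AGGTCA, which overlaps the paired element in *Fabp1* and occurs there once more, was found in 16.3% of all promoters and in 7 of these 25 (*Acadm*, *Acadvl*, *Cd36*, *Cpt1a*, *Echs1*, *Fabp1* and *Scp2*). No match to these letters lay in the *Ehhadh* window. Sequence outside these windows was not searched, so an element farther from the start could not be seen. A match is a run of letters and not a site shown to be bound.

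Across the whole set, no gene passed the test: 0 of 31 reached an adjusted p under 0.05 in limma with Benjamini-Hochberg adjustment over 12422 probe sets, where 0.129% of all probe sets did. The smallest adjusted p among them was 0.237. In the mean, 8 genes were above Flox and 23 below, and the median log2 difference was -0.69, beside 0.01 over all probe sets. However, 16 of the 31 genes lay in the brightest decile and 6 in the next, where the medians of all probe sets were -0.65 and -0.28. At an unadjusted p under 0.05, 3 genes were higher (7.43% of all probe sets) and 10 were lower (13.5% of all probe sets). In the brightest decile 537 of 1243 probe sets were lower at this p, and in the next 355 of 1242. Groups were fully apart where every LIRKO array lay on the same side of every Flox array. This held for 2 genes that were higher, *Acsl4* and *Acads* (9.84% of all probe sets). It also held for 8 that were lower, *Fabp1*, *Acsl5*, *Echs1*, *Acaa1a*, *Hsd17b4*, *Scp2*, *Acot8* and *Pex11a* (14.9% of all probe sets). In the brightest decile 427 of 1243 probe sets were apart as lower, and in the next 327 of 1242. Another probe set of *Acads*, brighter on the Flox arrays, differed by -0.82, so no direction can be given for this gene. A dim probe set of *Fabp1* differed by 1.23, so the direction of *Fabp1* rests on the choice of probe set. *Acads* was also among the 3 genes higher at an unadjusted p under 0.05.

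The genes had a median of 0.07 on LIRKO 1 and of -1.08 and -0.94 on the other two LIRKO arrays, so that the negative median came from the latter pair. Of the 16 genes in the brightest decile, 13 lay below that decile's median on LIRKO 2 and 13 on LIRKO 3, with medians of -1.41 and -1.12. On LIRKO 1 the same 16 genes had a median of -0.08, and 9 lay below the decile's median. Without LIRKO 1, 25 of the 31 genes passed the test, 3 higher and 22 lower, where 22.4% of all probe sets passed as higher and 26.7% as lower. These shares include the dimmest decile, whose medians were 0.23 and 0.15 on LIRKO 2 and 3. No share was taken within the brightest decile, so whether the 22 exceed its shift was not tested. After cyclic loess normalization, 12 genes were above Flox and 19 below, with a median of -0.18 and again 0 genes past the threshold.

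**Figure D1:**
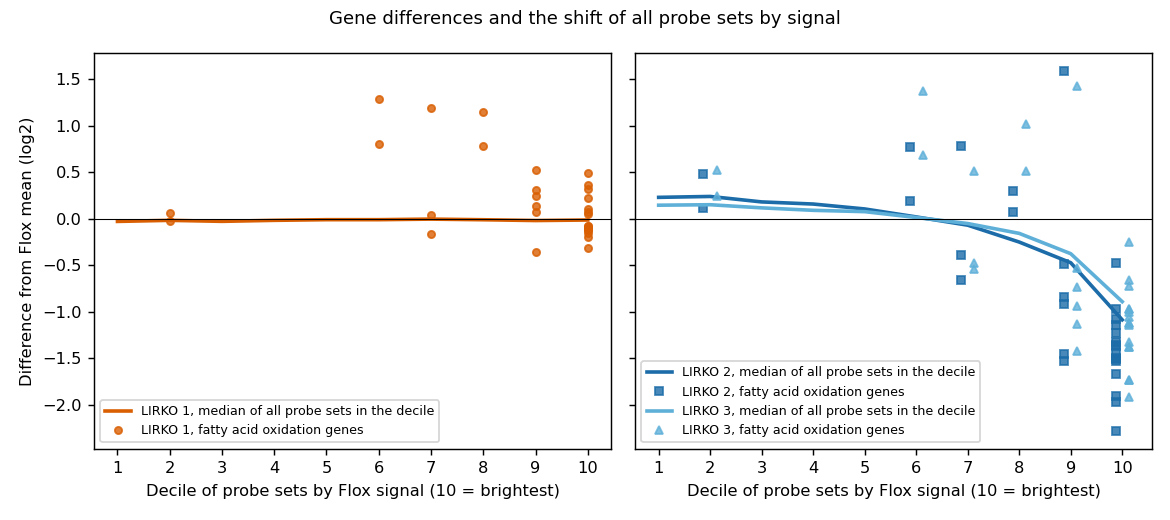
Difference from the Flox mean (log2, vertical axis) against deciles of all probe sets by Flox signal (horizontal axis, 10 is the brightest), for LIRKO 1 (left) and LIRKO 2 and 3 (right). Lines are the median of all probe sets in a decile and points are the 31 fatty acid oxidation genes; the line stays near 0 on LIRKO 1 and reaches -1.09 and -0.89 on LIRKO 2 and 3, where most of the bright genes lie below it.

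Of the 5 genes of uptake and activation, 3 were above Flox in the mean and 2 below, among them the largest negative difference of the 31 genes. On LIRKO 1 the median of the 5 was 0.06, with 3 above the Flox mean and 2 below. *Acsl4*, an acyl-CoA synthetase that prefers arachidonate, read 7.14, 6.61 and 7.38 on the Flox arrays and 7.85, 7.82 and 8.42 on the LIRKO arrays. Every LIRKO array was above every Flox array, with a difference of 0.99 ± 0.25 (SE, adjusted p = 0.237 from limma) that was 0.80 on LIRKO 1 and 1.06 after cyclic loess. *Acsl5*, another long-chain acyl-CoA synthetase, read 9.996, 10.02 and 9.98 on Flox and 9.69, 7.72 and 8.08 on LIRKO arrays. The Flox pools lay within 0.05 of each other and all LIRKO pools were lower, by 0.31 on LIRKO 1, and the mean difference was -1.50 ± 0.47 (SE, adjusted p = 0.237 from limma), or -1.07 after cyclic loess. These 2 synthetases thus pointed in opposite directions on each LIRKO array and under both normalizations, and neither passed the test.

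*Fabp1*, the liver fatty acid binding protein whose promoter holds the paired element, read 12.71, 12.89 and 12.74 on Flox and 12.66, 10.88 and 11.05 on LIRKO arrays. Its differences from the Flox mean were -0.12, -1.90 and -1.73 on LIRKO 1, 2 and 3. The mean difference of -1.25 ± 0.45 (SE, adjusted p = 0.237 from limma) became -0.33 after cyclic loess. A dim probe set of *Fabp1*, given below, went the other way in the mean. *Acot1*, a cytosolic acyl-CoA thioesterase, read 7.02, 8.36 and 7.31 on Flox and 8.76, 8.35 and 8.07 on LIRKO arrays. LIRKO 1 exceeded all Flox pools, while Flox 2 was level with LIRKO 2, and the difference was 0.83 ± 0.36 (SE, adjusted p = 0.242 from limma). *Acot1* has near-identical neighbours, and a probe set of this gene may not separate them. *Cd36*, a fatty acid translocase, was dim, at 4.08 to 4.43 on Flox and 4.34 to 4.52 on LIRKO arrays, with a difference of 0.14.

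**Figure D2:**
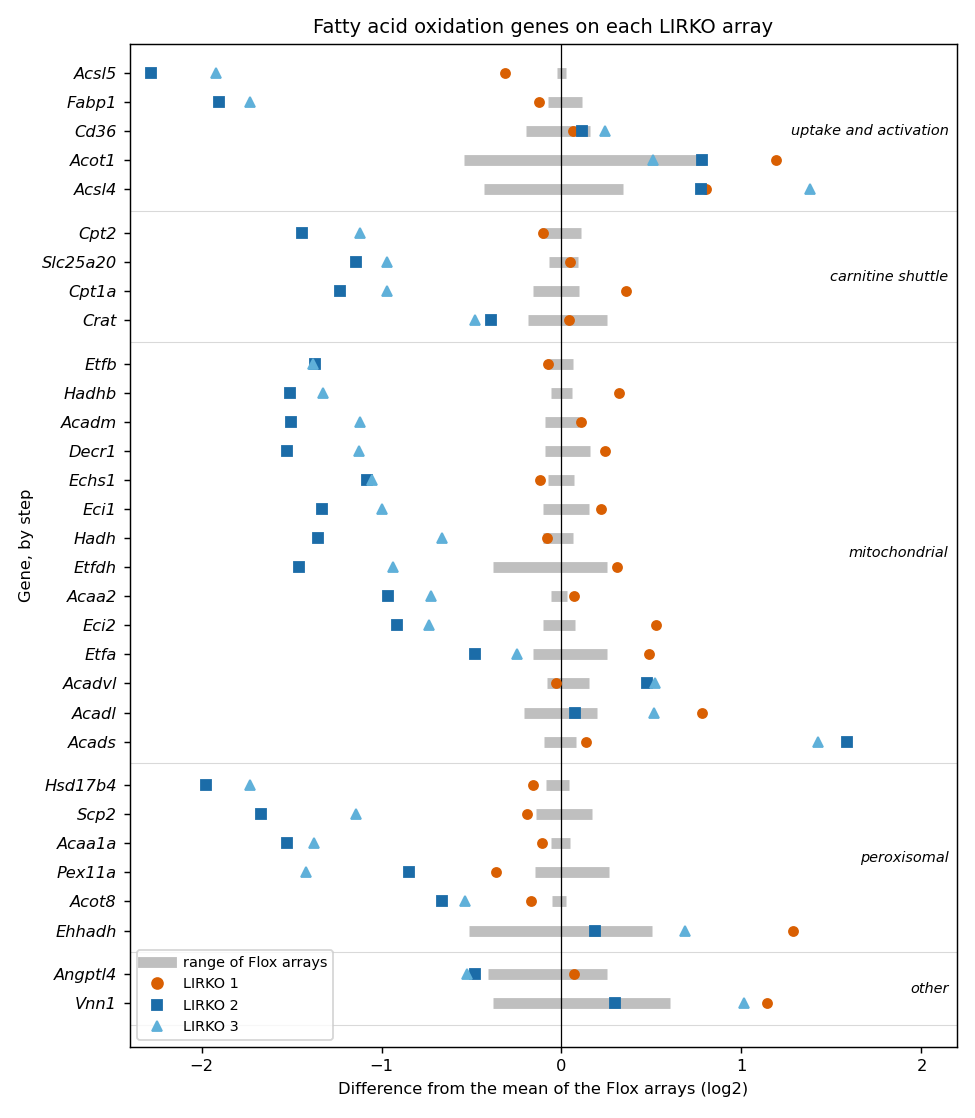
Value on each LIRKO array minus the average of the 3 Flox arrays (log2, horizontal axis) for the 31 genes, grouped by step and ordered by the mean difference (vertical axis); the grey bar is the range of the Flox arrays. LIRKO 2 and 3 lie left of 0 for 23 genes, while LIRKO 1 (circles) lies above the Flox range for 15 genes, below it for 8 and within it for 8.

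In the carnitine shuttle, all 4 genes were below Flox in the mean (median -0.65, or -0.38 with the probe sets of a gene averaged, where *Cpt2* was at 0.12), and none was called or had groups that did not overlap. *Cpt1a*, the outer membrane transferase that controls entry of long chains, read 11.26, 11.48 and 11.52 on Flox and 11.78, 10.19 and 10.45 on LIRKO arrays. Alone among the 4, its LIRKO 1 value lay above all Flox pools, by 0.36 over their mean, while LIRKO 2 and 3 lay well below. Its difference of -0.61 ± 0.39 (SE, adjusted p = 0.350 from limma) changed sign to 0.14 after cyclic loess. *Cpt2*, the inner membrane transferase, read 10.99, 11.09 and 10.87 on Flox and 10.88, 9.54 and 9.86 on LIRKO arrays (difference -0.89 ± 0.33, SE, adjusted p = 0.237 from limma). The translocase *Slc25a20* read 9.88, 9.93 and 10.04 on Flox and 9.996, 8.81 and 8.98 on LIRKO arrays (-0.69), and *Crat*, which handles short-chain esters, read 7.07, 7.502 and 7.19 against 7.29, 6.86 and 6.77 (-0.28). For these 3 genes LIRKO 1 lay within the Flox range, at -0.10, 0.05 and 0.04 from the Flox mean.

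At the mitochondrial step, LIRKO 1 and the other LIRKO arrays lay on opposite sides of Flox for most genes. Of 14 genes, 11 were below Flox in the mean and 3 above, with medians of 0.18, -1.20 and -0.84 on LIRKO 1, 2 and 3. On LIRKO 1, 10 of the 14 lay above the highest Flox array, 1 below the lowest and 3 within. Over all probe sets, 24.7% lay above the highest Flox array on LIRKO 1 and 30.9% below the lowest. The values on LIRKO 1 were small, and 2 of the 14 were over 0.5 above the Flox mean, *Acadl* and *Eci2*.

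Among the dehydrogenases of the first step, *Acadl*, the long-chain enzyme, read 7.90, 7.68 and 8.09 on Flox and 8.67, 7.96 and 8.40 on LIRKO arrays. It was above the Flox mean on each LIRKO array, by 0.78, 0.07 and 0.51, with a difference of 0.46 ± 0.21 (SE, adjusted p = 0.248 from limma). *Acadm*, the medium-chain enzyme, read 10.99, 11.08 and 11.18 on Flox and 11.19, 9.58 and 9.96 on LIRKO arrays. LIRKO 1 was just above the highest Flox pool and the other LIRKO arrays were at -1.501 and -1.12 from the Flox mean, for a difference of -0.84 (adjusted p = 0.251 from limma). *Acads*, the short-chain enzyme, read 8.47, 8.65 and 8.58 on Flox and 8.70, 10.15 and 9.99 on LIRKO arrays, the largest positive difference of the 31 genes (1.05 ± 0.37, SE, adjusted p = 0.237 from limma). Another probe set of *Acads*, given below, went the other way. *Acadvl*, the very-long-chain enzyme, was dim, at 4.12 to 4.35 on Flox and 4.17 to 4.72 on LIRKO arrays.

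For the enzymes that follow, *Echs1*, the short-chain hydratase, read 10.26, 10.32 and 10.18 on Flox and 10.14, 9.17 and 9.20 on LIRKO arrays. Alone among the 14 mitochondrial genes, it had all LIRKO arrays below all Flox arrays (-0.75 ± 0.26, SE, adjusted p = 0.237 from limma), and LIRKO 1 lay 0.12 below the Flox mean. *Hadh*, the short-chain hydroxyacyl-CoA dehydrogenase, read 10.50, 10.35 and 10.51 against 10.37, 9.10 and 9.79 (-0.70). *Hadhb*, the thiolase subunit of the trifunctional protein, read 10.48, 10.54 and 10.42 on Flox and 10.80, 8.97 and 9.16 on LIRKO arrays. Its difference was -0.84 in the mean but 0.32 on LIRKO 1, above every Flox pool. *Acaa2*, the mitochondrial thiolase, differed by -0.54 in the mean, by 0.07 on LIRKO 1 and by 0.44 after cyclic loess, a change of sign. Among very bright hepatocyte markers, cyclic loess took *Cps1* from 0.10 to 1.15 and *Alb* from -0.15 to 1.07, while *Ttr* stayed lower, at -1.21. Whether cyclic loess raises bright genes such as *Acaa2* and *Cpt1a* too far was not tested.

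The auxiliary enzymes that deal with double bonds followed the same split. *Eci2*, an enoyl-CoA isomerase, read 9.10 ± 0.0913 (SD, n = 3) on Flox and 9.63, 8.19 and 8.36 on LIRKO arrays. LIRKO 1 was thus 0.53 above and LIRKO 2 0.91 below the Flox mean. *Eci1*, the other isomerase, and *Decr1*, the dienoyl-CoA reductase, were 0.22 and 0.24 above the Flox mean on LIRKO 1, and -0.70 and -0.80 in the mean of all LIRKO arrays.

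Of the electron carriers, *Etfa* and *Etfdh* were 0.49 and 0.31 above the Flox mean on LIRKO 1, beyond all Flox pools. *Etfb* read 10.96, 11.01 and 10.86 on Flox and 10.87, 9.57 and 9.56 on LIRKO arrays, with LIRKO 1 inside the Flox range (-0.94 ± 0.35, SE, adjusted p = 0.237 from limma). After cyclic loess *Etfa* was at 0.42, against -0.08 before, and *Etfb* at -0.29. None of these genes passed the test in either form.

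Of 6 peroxisomal genes, 5 were below all Flox pools on every LIRKO array, LIRKO 1 included, at a median over the 6 of -0.94 in the mean, -0.16 on LIRKO 1 and -0.41 after cyclic loess. Over all probe sets, 14.9% were apart in this way, and 34.4% in the brightest decile, where 3 of the 6 genes lie. The same 5 were below and *Ehhadh* above in the mean as deposited, after quantile normalization, after cyclic loess and on LIRKO 1 alone. *Hsd17b4*, the D-specific bifunctional enzyme, read 11.14, 11.14 and 11.02 on Flox and 10.94, 9.13 and 9.37 on LIRKO arrays. Each LIRKO array was lower than each Flox array (-1.29 ± 0.45, SE, adjusted p = 0.237 from limma), and the difference was -0.64 after cyclic loess. *Pex11a*, which promotes peroxisome division, read 8.51, 8.92 and 8.54 on Flox and 8.29, 7.81 and 7.24 on LIRKO arrays. It was 0.36 below the Flox mean on LIRKO 1, the lowest value of any of the 31 genes on that array, and -0.88 ± 0.27 (SE, adjusted p = 0.237 from limma) in the mean.

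*Scp2*, the sterol carrier protein and thiolase of branched chains, read 11.94, 11.83 and 12.14 on Flox and 11.77, 10.30 and 10.82 on LIRKO arrays (-1.003 ± 0.35, SE, adjusted p = 0.237 from limma). *Acaa1a*, the peroxisomal thiolase, read 10.69, 10.73 and 10.62 against 10.58, 9.16 and 9.31 (-1.003 ± 0.36, SE). *Acot8*, the peroxisomal thioesterase, read 7.38, 7.30 and 7.37 against 7.18, 6.69 and 6.81 (-0.46 ± 0.15, SE). All 3 were lower on each LIRKO array, by 0.19, 0.11 and 0.17 on LIRKO 1. After cyclic loess the groups of *Scp2* overlapped while those of *Acaa1a*, *Acot8*, *Hsd17b4* and *Pex11a* did not. The share of all probe sets apart after cyclic loess was not analysed here, so these genes have no background to be set beside. *Acaa1a* has a near-identical copy, *Acaa1b*, and how far the probe set separates them is not known here.

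*Ehhadh*, the L-bifunctional enzyme of peroxisomes and a classical PPARα target, went the other way. It read 6.31, 7.32 and 6.83 on Flox and 8.11, 7.01 and 7.51 on LIRKO arrays. LIRKO 1 was 1.29 above the Flox mean, the largest value of any of the 31 genes on that array, but Flox 2 exceeded LIRKO 2, and the difference of 0.72 ± 0.35 (SE, adjusted p = 0.257 from limma) was not called.

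LIRKO 1 was over 0.5 above the Flox mean for 6 of the 31 genes, *Ehhadh*, *Acot1*, *Vnn1*, *Acsl4*, *Acadl* and *Eci2* (2.2% of all probe sets), and over 0.5 below it for 0 (1.38% of all probe sets). With LIRKO 1 as the only LIRKO array and the spread taken from the Flox arrays, 0 of the 31 passed in limma, and 9 were higher (5.17% of all probe sets) and 1 lower (4.51% of all probe sets) at an unadjusted p under 0.05. *Vnn1*, a pantetheinase that recycles coenzyme A precursors and a PPARα target, read 7.79, 8.78 and 7.95 on Flox and 9.31, 8.47 and 9.18 on LIRKO arrays. LIRKO 1 and 3 exceeded all Flox pools and LIRKO 2 did not (0.82 ± 0.32, SE, adjusted p = 0.237 from limma). *Angptl4*, a secreted inhibitor of lipoprotein lipase, read 9.17, 9.07 and 8.51 against 8.99, 8.44 and 8.39 (-0.31), and its sign turned to 0.01 after cyclic loess.

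*Ehhadh*, *Acot1* and *Vnn1* shared a spread among the controls. Their Flox values spanned over 0.9, a bound chosen after the values were seen, as they did for no other gene of the set and for 62 of all probe sets (0.499%). In each of the 3, Flox 2 was the highest and Flox 1 the lowest Flox pool, an order also taken from these values. It held for 18 of all probe sets at this span (0.145%), a share that describes these genes and tests nothing. The omega-oxidation genes *Cyp4a10* and *Cyp4a14*, cytochromes P450 that PPARα is known to induce, had the same order. *Cyp4a10* read 7.25, 9.72 and 8.49 on Flox and 10.93, 9.91 and 10.50 on LIRKO arrays (1.96 ± 0.60, SE, adjusted p = 0.237 from limma). *Cyp4a14* read 7.11, 10.48 and 8.30 on Flox and 11.38, 10.92 and 11.19 on LIRKO arrays (2.53 ± 0.77, SE, adjusted p = 0.237 from limma). Both were above all Flox pools on every LIRKO array, while the Flox pools themselves spanned 2.47 and 3.37. The *Cyp4a* genes are close copies that may share probes. Because Flox 2 was their highest control, leaving it out could only raise the differences of *Acot1*, *Ehhadh* and *Vnn1*, to 1.22, 0.97 and 1.12. For *Acot1*, the difference was 0.55 without Flox 1 and 0.70 without Flox 3.

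**Figure D3:**
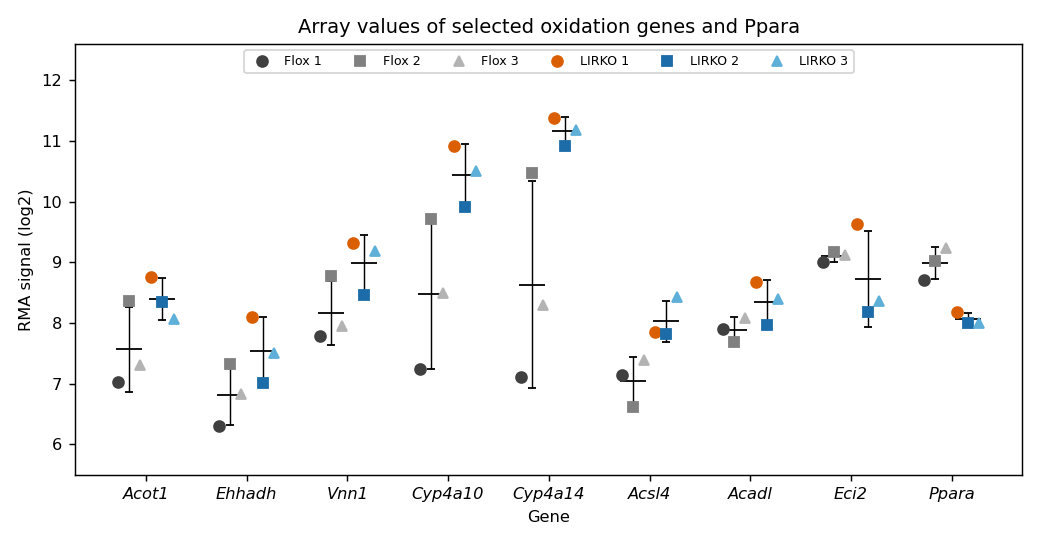
Log2 RMA signal (vertical axis) on each of the 3 Flox and 3 LIRKO arrays for genes over 0.5 above the Flox mean on LIRKO 1, with *Cyp4a10*, *Cyp4a14* and *Ppara* (horizontal axis); bars are the group mean and SD (n = 3). Flox 1 is lowest and Flox 2 highest among the controls for the 5 genes on the left, and *Ppara* is lower on all LIRKO arrays.

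*Ppara*, the gene of the receptor itself, read 8.71, 9.02 and 9.24 on Flox and 8.19, 7.996 and 8.01 on LIRKO arrays. The arrays did not overlap, LIRKO 1 lay 0.80 below the Flox mean beside 0.99 and 0.98 for the others, and the difference was -0.93 ± 0.16 (SE, adjusted p = 0.223 from limma), or -0.66 after cyclic loess. It did not pass the threshold in either form. *Ppargc1a*, a coactivator of mitochondrial genes, was dim at 4.10, 4.01 and 4.01 on Flox and 4.38, 4.44 and 4.67 on LIRKO arrays (0.46 ± 0.12, SE, adjusted p = 0.237 from limma). Of 22 listed regulators 16 were measured, and 0 were called. At an unadjusted p under 0.05, 3 were higher (7.43% of all probe sets) and 3 lower (13.5% of all probe sets).

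Among 34 measured of 50 other fatty acid oxidation genes, 0 were called. At an unadjusted p under 0.05, 2 were higher (7.43% of all probe sets) and 9 lower (13.5% of all probe sets). Of the 34 genes, 15 lay in the brightest decile, where the median of all probe sets was -0.65. The median of the 34 genes was -0.49, or -0.21 after cyclic loess. The smallest p belonged to *Abcd3*, a transporter of the peroxisomal membrane for branched chains and bile acid precursors, which read 12.09, 12.16 and 12.24 on Flox and 11.14, 9.59 and 9.62 on LIRKO arrays. LIRKO 1 was 1.02 below the Flox mean. The difference of -2.05 ± 0.41 (SE, adjusted p = 0.237 from limma) passed after cyclic loess (-1.29, adjusted p = 0.0241 from limma). *Slc25a17*, the peroxisomal carrier of coenzyme A, read 9.87, 9.97 and 9.74 on Flox and 9.37, 8.73 and 8.63 on LIRKO arrays (-0.95 ± 0.21, SE, adjusted p = 0.237 from limma), with LIRKO 1 0.49 below the Flox mean. Of this list, 12 measured genes were picked as peroxisomal after their values were seen. Of these, 4 were below all Flox pools on every LIRKO array (*Abcd3*, *Slc25a17* and the import factors *Pex5* and *Pex19*). Over all probe sets, 14.9% were apart in this way, and 34.4% in the brightest decile. Another 1 was above all Flox pools on every LIRKO array (*Abcd2*, a transporter related to *Abcd3*, 0.59), as were 9.84% of all probe sets. The other 7 overlapped with Flox, among them the import factors *Pex7* and *Pex13*. On LIRKO 1, 7 of the 12 were above the Flox mean and 5 below. *Pdk4*, the kinase that turns off pyruvate dehydrogenase and is a common marker of fatty acid use, was also chosen after its values were seen and read 5.41, 5.65 and 5.52 against 6.28, 7.03 and 6.15 (0.96 ± 0.24, SE, adjusted p = 0.237 from limma).

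Of omega-oxidation genes 5 of 10 were measured, with 0 called. At an unadjusted p under 0.05, 2 were higher (7.43% of all probe sets) and 1 lower (13.5% of all probe sets). The lower was *Cyp4a12b*, a *Cyp4a* gene with male-biased expression, at 11.77, 11.94 and 11.49 on Flox and 10.78, 9.21 and 9.36 on LIRKO arrays (-1.95 ± 0.41, SE, adjusted p = 0.237 from limma). Its direction was opposite to that of *Cyp4a10* and *Cyp4a14* on each LIRKO array. Of 8 other ketone genes 2 were measured, and neither makes ketone bodies. *Oxct1*, which uses them outside the liver, was dim at 5.03 to 5.14 on Flox and 4.80 to 5.08 on LIRKO arrays, and *Slc16a1*, a monocarboxylate transporter, differed by 0.14, and by 0.30 on LIRKO 1.

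Of 21 genes of the citrate cycle, which burns the acetyl-CoA, 20 were measured, 0 were called, 0 passed an unadjusted p under 0.05 in either direction, and the median was -0.42, which became 0.02 after cyclic loess, with 11 above and 9 below Flox. On LIRKO 1, 15 of the 20 lay above the highest Flox array and 2 below the lowest. Over all probe sets, these shares were 24.7% and 30.9%. *Cs*, citrate synthase, and *Pdhb*, a subunit of pyruvate dehydrogenase, differed by -0.47 and -0.95, and by -0.07 and 0.14 on LIRKO 1.

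For *Fabp1*, *Cpt2*, *Acads* and *Angptl4*, probe sets of 1 gene disagreed in sign on both LIRKO 2 and LIRKO 3. A dim probe set of *Fabp1* read 5.41, 5.80 and 5.45 on Flox and 5.49, 7.26 and 7.59 on LIRKO arrays, a difference of 1.23 against -1.25 for the brighter one. For *Cpt2*, a dim probe set read 3.84, 4.18 and 3.90 on Flox and 4.01, 5.79 and 5.52 on LIRKO arrays, 1.14 against -0.89. On LIRKO 1 the brighter and the dimmer probe set differed from the Flox mean by -0.12 and -0.07 for *Fabp1* and by -0.10 and 0.04 for *Cpt2*. The second probe set of *Acads* read 9.62, 9.27 and 9.32 on Flox and 9.48, 8.07 and 8.19 on LIRKO arrays, -0.82 against the 1.05 given above, so that no direction can be given for *Acads*. With the probe sets of a gene averaged, the differences of *Fabp1*, *Cpt2* and *Acads* were -0.01, 0.12 and 0.11, so that the direction of *Fabp1* and *Cpt2* also rests on the choice of probe set. The second probe sets of *Acads* and *Scp2* would have been read had the Flox arrays alone set the choice.

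The second probe sets of *Scp2* (-1.41, and -0.26 on LIRKO 1), *Etfb* (-0.27, and 0.07 on LIRKO 1) and *Acsl4* (0.35) had the sign of the first in the mean. For *Acsl4* it again separated the groups, at 5.06, 5.20 and 5.24 on Flox and 5.84, 5.34 and 5.36 on LIRKO arrays (adjusted p = 0.258 from limma). Over all probe sets, 9.84% were apart as higher. Its differences of 0.17 and 0.19 on LIRKO 2 and 3 stood beside medians of 0.18 and 0.12 for all probe sets of its decile. Those of *Cd36* (-0.04), *Acadvl* (-0.14) and *Crat* (0.00) differed little, and 3 others of *Angptl4* were at -0.14, 0.30 and -0.19. The probe set of *Angptl4* at 0.30 was at 0.67 and 0.42 on LIRKO 2 and 3, against -0.48 and -0.53 for the one read above. The remaining 21 genes had a single probe set.

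**Figure D4:**
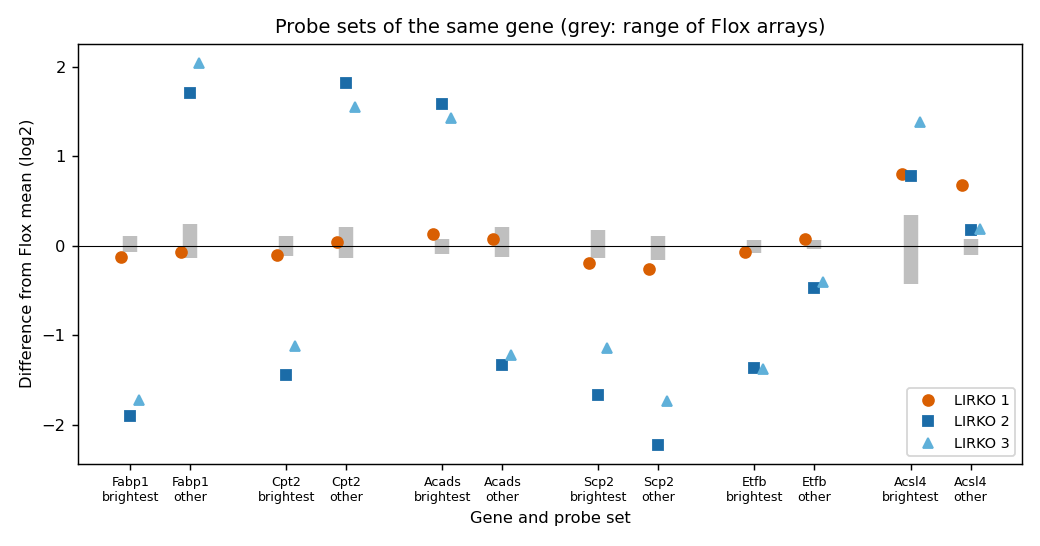
Difference of each LIRKO array from the Flox mean (log2, vertical axis) for the probe set with the highest mean (brightest) and the other probe set of 6 genes (horizontal axis); grey bars are the range of the Flox arrays. For *Fabp1*, *Cpt2* and *Acads* the probe sets point in opposite directions on LIRKO 2 and 3 and lie near 0 on LIRKO 1, while those of *Scp2*, *Etfb* and *Acsl4* point the same way in the mean.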

How the data were processed

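Liver RNA of 3 Flox and 3 LIRKO pools was read on Affymetrix arrays. The authors processed the raw data with affy and limma and RMA, whose version the sources do not give, and deposited log2 values, 1 per probe set and array. No source says if the arrays went through RMA as 1 set. The deposited values were used without further scaling, and 66 array controls of 12488 probe sets were left out. The comparison of LIRKO against Flox used lmFit and eBayes of limma 3.58.1 in R 4.3.3, with Benjamini-Hochberg adjustment over 12422 probe sets at a threshold of 0.05. Arrays give no counts, so their number limits the precision, and the p-values measure only the spread between pools.

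The genes, the lists and the steps they were sorted into were chosen with earlier results of these data known. Gene symbols came from the platform annotation (10833 probe sets with 1 symbol). Values are printed for the 4 smallest unadjusted p in each step, the 4 largest positive and 4 largest negative differences, genes whose probe sets disagree in sign or by over 1, *Ppara*, and the 2 smallest p in each further list. Some planned genes are not reported here. Others are named as illustrations chosen after their values were seen. Promoters came from RefSeq (GRCm38.p6), and 25 of 31 genes had an entry. Alternatives were quantile, cyclic loess and median normalization, a filter on the dimmest 25%, another variance model, the replicate number as a block, the methods' t-test, averaging the probe sets of a gene, leaving out each array, and LIRKO 1 alone. The test was tried on simulated data. Figures used Python 3.11.15, numpy 2.4.6, pandas 2.3.3 and matplotlib 3.10.9.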

Additional observations from a re-analysis of the deposited data

Results flagged for a closer look

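The array's control transcripts, which play no part in the comparisons, stood apart on the LIRKO arrays with the shift of bright probe sets. Over 9 controls, the median difference from the Flox mean was 1.08 (log2) on LIRKO 2, with 9 of 9 above it, and 0.962 on LIRKO 3, with 8 of 9 above it. It lay between -0.233 and 0.177 on the Flox arrays and was -0.248 on LIRKO 1. The part of this difference in the values of the oxidation genes was not tested.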

How the results depend on the processing

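No oxidation gene passed the threshold as deposited (0 of 31), nor under 3 other normalizations, the filter on dim probe sets, the other variance model, the methods' t-test, the mean of probe sets or LIRKO 1 alone. Leaving out each array gave 0 to 25, the 25 without LIRKO 1. The genes higher at an unadjusted p under 0.05 (3) were 5 after quantile normalization, 6 after cyclic loess, 1 by the methods' t-test, 9 on LIRKO 1 alone and 1 to 4 without an array. Those lower (10) were 6 after cyclic loess, 0 by the methods' t-test, 1 on LIRKO 1 alone and 1 to 23 without an array. The median over all genes (-0.69) became -0.29 after quantile normalization, -0.18 after cyclic loess, 0.0696 on LIRKO 1 alone, -1.06 without LIRKO 1 and -0.35 without LIRKO 2. On LIRKO 1 alone uptake and activation was at 0.0643 and the carnitine shuttle at 0.0448. The mitochondrial step was at 0.18, the peroxisomal at -0.16 and the other genes at 0.61. The mitochondrial median (-0.70) was -0.28 after quantile normalization and -0.13 after cyclic loess, and the peroxisomal (-0.94) was -0.50 and -0.41. Both normalizations draw the arrays' signal distributions together, and LIRKO 1 alone drops the shifted arrays. Of all probe sets 16 were called as deposited, 23 after quantile normalization, 40 after cyclic loess, 0 by the methods' t-test, 90 on LIRKO 1 alone and 6095 without LIRKO 1. With a replicate block, 0 of the 31 genes and 11 of all probe sets were called, with 3 genes higher and 11 lower at an unadjusted p under 0.05. The labels do not say that a number is shared, and same-numbered arrays correlated in their deviations at 0.321, 0.399 and 0.092, so the numbers were not taken as pairs. Dropping the dimmest probe sets, *Cd36* among them, turned the median of uptake and activation from 0.14 to -0.21. Averaging probe sets moved that of the carnitine shuttle from -0.65 to -0.38. The ketone step has no value under any setting, and dim genes such as *Cd36* and *Acadvl* lie where the array's signal is weakest.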
